A study of Mus musculus with 8 samples.

Results

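The 34 genes described here encode enzymes of the tricarboxylic acid (TCA) cycle and the enzymes that feed it or shuttle its intermediates between mitochondrion and cytosol. They were taken as a named list and matched by symbol among 55471 gene rows. All 34 were among the 15084 genes tested. The list has 19 core members, which are the cycle enzymes, their subunits and the assembly factors of succinate dehydrogenase, and 15 anaplerotic and shuttle members.

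The cycle oxidises acetyl groups in the mitochondrial matrix and passes the electrons to the respiratory chain as NADH or through succinate dehydrogenase, which is also complex II of that chain. Anaplerotic enzymes refill its intermediates from pyruvate or amino acids, and cataplerotic enzymes withdraw them for synthesis. The malate-aspartate and glycerol phosphate shuttles carry cytosolic reducing equivalents to the mitochondrion, and in the heart, a tissue with a dense mitochondrial network, the malate-aspartate shuttle is the main route.

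RNA-seq was performed on a small piece of heart from each of 4 WT and 4 TAZG197V mice, untreated and at 14 weeks of age. TAZG197V mice carry a point mutation known from a patient in Taz, which encodes Tafazzin, the enzyme that remodels the mitochondrial phospholipid cardiolipin. The mutation was introduced by CRISPR/Cas9 in C57BL/6N zygotes and founders were crossed to C57BL6/J, so the change is not limited to the heart. The study calls the mutants hemizygous males in one place, Taz being X-linked, and in another, as the sample labels do, homozygous offspring from matings of heterozygotes. Neither source tells which part of the heart was taken or which mice were littermates.

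Total counts ran from 23055689 to 36301031 per library. Levels are given as CPM, counts relative to library size after TMM scaling, with the SD over 4 libraries where a mean is given. *Taz* itself was measured at 63.8, 58.7, 61.9 and 59.3 CPM in WT 1 to 4 and 48.03, 50.4, 46.3 and 44.3 CPM in TAZG197V 1 to 4. Every mutant library lay below every WT library (log2 fold change -0.37 ± 0.06 SE, edgeR adjusted p = 0.00124). The SE is the standard error of the fitted change, negative where TAZG197V was lower, and intervals extend 1.96 SE to each side. Such intervals are narrower than the edgeR test would give, and calls rest on that test. A point mutation need not lower a transcript, so the level checks the labels only in part. Libraries that stood apart were WT 2, with 919 CPM summed over 4 atrial markers and 21.8 CPM over 6 adipocyte markers, WT 4, with 55072 CPM over 6 red cell markers and 80.3 CPM over 4 brain markers, and TAZG197V 4, with 207 CPM over the brain markers and 3.81 CPM over the adipocyte markers. WT 1 also had 75.1 CPM over the atrial and 3.65 CPM over the adipocyte markers. The brain markers summed to between 3.07 and 5.27 CPM in the other libraries. Where leaving out one of these libraries changed the call of a member, this is stated beside it.

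Of the 19 core members, 5 were lower in TAZG197V hearts and 0 were higher: *Sucla2*, *Dlst*, *Idh3b*, *Sdhc* and *Fh1*, with log2 fold changes from -0.45 to -0.22. Of the 15 anaplerotic and shuttle members, 5 were higher (*Pck2*, *Gpt2*, *Got1*, *Me2* and *Me1*, from 0.45 to 2.35) and 5 were lower (*Me3*, *Got2*, *Pcx*, *Glud1* and *D2hgdh*, from -0.59 to -0.21). A call needed an edgeR adjusted p under 0.05, a level at least 15% above that of the other genotype in the fit, and a mean scaled count of 50 or more. By this rule 33.5% of all genes tested were called, 18.5% higher and 15.1% lower, so that calls were common in this comparison. The 15 calls among 34 members make 44.1%. The core list had 26.3% of its members called, all of them lower.

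**Figure D1:**
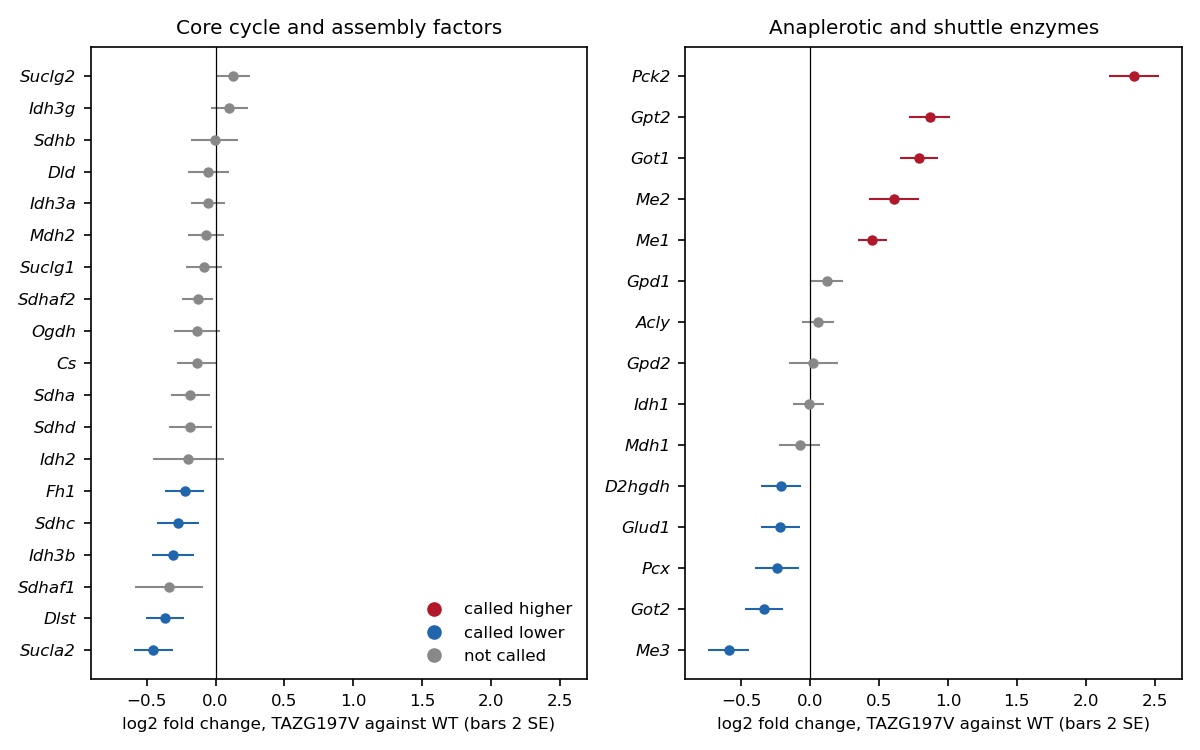
Log2 fold change of each of the 34 members in TAZG197V against WT hearts, 4 libraries each, from the edgeR fit, with the core members in the left panel and the anaplerotic and shuttle members in the right panel. Bars extend 2 SE to each side, and red, blue and grey mark members called higher, called lower and not called. The core members lie between -0.45 and 0.13, while the others spread from -0.59 to 2.35.

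Over the core list the median log2 fold change was -0.13, beside -0.013 over all genes tested, and 17 of 19 members had a value below 0. Libraries of the genotypes did not overlap for 6 core members, all lower, where 13.9% of all genes tested were lower without overlap. In both directions together 33.2% of all genes did not overlap. Those 6 core members were the 5 called members and *Sdha*. Summed over the core members, levels were 15625 ± 1140 CPM across WT and 14074 ± 301 CPM across TAZG197V libraries (SD, n = 4 each), a difference of -9.93%. The number of core members called depended on single libraries. It was 3, all lower, without WT 1, without TAZG197V 1 or without TAZG197V 3, where 12.1%, 10.9% and 13.5% of all genes tested were called lower. It was 8, all lower, without WT 2 and TAZG197V 4 (15.2% of all genes lower), and 8 without WT 4 as well (13.1% lower), where no surrogate variables were used.

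Cardiomyocyte markers were measured beside the core members. Of 6 such markers 3 were called lower and 0 higher: *Tnnt2* (-0.33), *Tnni3* (-0.32) and *Ryr2* (-0.45). Their sum was 54370 to 60976 CPM in WT and 45493 to 49684 CPM in TAZG197V, and none of the 6 was at 0 in any library. Of 4 fibroblast markers 2 were called lower and 0 higher, with sums of 950.4 to 1499.8 CPM in WT and 644 to 938 CPM in TAZG197V. Of 4 endothelial markers 2 were called lower and 0 higher, with sums of 614 to 877 CPM and 495 to 636 CPM. Of 4 macrophage markers 0 were called, with sums of 114 to 131 CPM and 107 to 164 CPM. All 6 red cell markers were called lower, with sums of 346 to 1065 CPM in WT 1, 2 and 3, 55072 CPM in WT 4 and 227 to 571 CPM in TAZG197V. Of 4 atrial markers 2 were tested and called lower, with sums of 75.1 CPM in WT 1 and 919 CPM in WT 2 against at most 5.54 CPM in the other libraries. Of 6 adipocyte markers 1 was tested and called lower, and of 4 brain markers 3 were tested and 1 was called higher. The adipocyte marker level was put in place of the surrogate variables in an alternative fit. There 4 core members and 1611 of all genes tested were called lower, and *Fh1* lost its call (edgeR adjusted p = 0.0786). The part of the other markers in the core differences was not tested. In bulk tissue, fewer cells of a type and less RNA per cell cannot be told apart.

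Entry into the cycle was read from citrate synthase. *Cs*, which joins acetyl-CoA to oxaloacetate, was 1600.3 ± 135 CPM across WT and 1483 ± 64.6 CPM across TAZG197V hearts (log2 fold change -0.13, interval -0.27 to 0.01, edgeR adjusted p = 0.177) and was not called, with -0.08 without WT 4 and -0.07 without TAZG197V 4. *Idh2*, the NADP-linked isocitrate dehydrogenase of the matrix, was measured at 2116, 1725, 1840.4 and 1332 CPM in WT 1 to 4 and 1405, 1412, 1678 and 1494 CPM in TAZG197V 1 to 4. Its WT libraries spread over the whole range of the mutant libraries, WT 1 being the highest and WT 4 the lowest of the 8 (log2 fold change -0.20, interval -0.45 to 0.06, edgeR adjusted p = 0.256). Without WT 4 the value was -0.34 and was called (edgeR adjusted p = 0.0303), and without WT 1 it was -0.10 (edgeR adjusted p = 0.583).

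The NAD-linked isocitrate dehydrogenase is built from a catalytic alpha subunit and the regulatory beta and gamma subunits. *Idh3b*, the beta subunit, was lower in all 4 mutant libraries, at 879, 745, 850.0 and 706 CPM in WT 1 to 4 and 635, 669, 652 and 612 CPM in TAZG197V 1 to 4. The change was -19.4% (log2 fold change -0.31 ± 0.08 SE, edgeR adjusted p = 0.0136), and the genotypes did not overlap. *Idh3a*, the alpha subunit, was measured at 692, 612, 717 and 703 CPM in WT 1 to 4 and 695, 651, 662 and 657 CPM in TAZG197V 1 to 4 and overlapped (log2 fold change -0.0530, interval -0.17 to 0.07, edgeR adjusted p = 0.523). *Idh3g*, the gamma subunit, was measured at 524, 466, 515 and 445 CPM in WT 1 to 4 and 527, 563, 515 and 487 CPM in TAZG197V 1 to 4 and was not called (log2 fold change 0.0979, interval -0.03 to 0.23, edgeR adjusted p = 0.278). The ratio of *Idh3b* to *Idh3a* counts within a library went from a geometric mean of 1.16 to 0.964, with overlapping libraries (exact permutation p = 0.0571, two-sided, adjusted p = 0.114 over the 10 pairs). For *Idh3g* to *Idh3a* it went from 0.715 to 0.784 (exact permutation p = 0.143, two-sided, adjusted p = 0.204 over the 10 pairs).

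The oxoglutarate dehydrogenase complex converts 2-oxoglutarate to succinyl-CoA with 3 components, and only the one encoded by *Dlst* was called among them. *Dlst*, the succinyltransferase core, was measured at 799, 673, 805 and 723 CPM in WT 1 to 4 and 587, 581, 602 and 579 CPM in TAZG197V 1 to 4. Mutant libraries lay within a narrow band below the lowest WT library, WT 2 (log2 fold change -0.37 ± 0.07 SE, edgeR adjusted p = 0.00378). *Ogdh*, the dehydrogenase component, was 2334 ± 174 CPM across WT and 2151 ± 147 CPM across TAZG197V hearts (log2 fold change -0.13, interval -0.30 to 0.03, edgeR adjusted p = 0.24). *Dld*, the lipoamide dehydrogenase that this complex shares with pyruvate dehydrogenase, was 555 ± 51.9 CPM across WT and 538 ± 28.8 CPM across TAZG197V hearts (log2 fold change -0.0523, interval -0.20 to 0.09, edgeR adjusted p = 0.603).

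Succinyl-CoA ligase pairs a shared alpha subunit with a beta subunit that sets the nucleotide used. *Sucla2*, the ADP-forming beta subunit, had the largest change of the core list and was measured at 790.4, 664, 782 and 719 CPM in WT 1 to 4 and 545, 524, 562 and 554 CPM in TAZG197V 1 to 4. All mutant libraries lay below all WT libraries, a change of -26.8% (log2 fold change -0.45 ± 0.07 SE, edgeR adjusted p = 0.00178). *Suclg2*, the GDP-forming beta subunit, was measured at 95.9, 84.5, 86.6 and 80.9 CPM in WT 1 to 4 and 98.6, 96.1, 95.9 and 89.6 CPM in TAZG197V 1 to 4. It leaned the other way without being called (log2 fold change 0.13, interval 0.01 to 0.25, edgeR adjusted p = 0.127). The edgeR p before adjustment was 0.0651, so this interval is narrower than the test warrants. Of the 50-base windows of its exons 16.0% also occur in another annotated gene, so its counts are less certain. *Suclg1*, the shared alpha subunit, was 417 ± 44.2 CPM across WT and 399 ± 20.5 CPM across TAZG197V hearts (log2 fold change -0.0840, interval -0.21 to 0.04, edgeR adjusted p = 0.337).

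Within each library the ratio of *Sucla2* to *Suclg2* counts was 8.24, 7.86, 9.02 and 8.89 in WT 1 to 4 and 5.53, 5.45, 5.86 and 6.18 in TAZG197V 1 to 4. The genotypes did not overlap, and the geometric mean went from 8.49 to 5.75 (exact permutation p = 0.0286, two-sided, adjusted p = 0.0714 over the 10 pairs). With 4 libraries against 4, 0.0286 is the smallest two-sided p that this test can give, and 0 of the 10 pairs passed after adjustment. Under this adjustment no pair can pass unless most of the 10 reach that p together, so passing says little of a single pair. Without WT 4, 6 pairs passed (adjusted p = 0.0476, exact permutation test), namely *Sucla2* to *Suclg2*, *Idh3b* to *Idh3a*, *Got1* to *Got2*, *Idh1* to *Idh2* and both pairs of malic enzymes. Ratios of counts are not scaled by gene length and serve only to compare libraries.

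Succinate dehydrogenase has 4 subunits, 2 in the matrix and 2 in the membrane. *Sdha*, the flavoprotein that oxidises succinate, was measured at 2039.5, 1806, 1853 and 1805 CPM in WT 1 to 4 and 1674, 1644, 1664 and 1638 CPM in TAZG197V 1 to 4. All mutant libraries were below all WT libraries, yet *Sdha* was not called, missing both the adjusted p and the 15% limit (log2 fold change -0.18 ± 0.07 SE, edgeR adjusted p = 0.0772). *Sdhb*, the iron-sulfur subunit, was measured at 981, 821, 953 and 753 CPM in WT 1 to 4 and 873, 979, 858 and 785 CPM in TAZG197V 1 to 4 and the genotypes overlapped (log2 fold change -0.00760, interval -0.17 to 0.16, edgeR adjusted p = 0.952). *Sdhc*, a membrane anchor that helps bind ubiquinone and haem, was lower without overlap, at 479, 418, 439.7 and 404 CPM in WT 1 to 4 and 338, 386, 354 and 359 CPM in TAZG197V 1 to 4 (log2 fold change -0.28 ± 0.08 SE, edgeR adjusted p = 0.0218). *Sdhd*, the other anchor, was measured at 527, 457, 529.5 and 438 CPM in WT 1 to 4 and 403, 459, 449 and 414 CPM in TAZG197V 1 to 4 and was not called (log2 fold change -0.18, interval -0.33 to -0.03, edgeR adjusted p = 0.0949). Thus 1 of the 4 subunits was called.

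Without WT 2 and TAZG197V 4 both *Sdha* (-0.24, edgeR adjusted p = 0.0368) and *Sdhd* (-0.26, edgeR adjusted p = 0.0283) were called as well. *Sdhc* lost its call without WT 1, without TAZG197V 1 or without TAZG197V 3, with an edgeR adjusted p of up to 0.069. The ratio of *Sdhb* to *Sdha* overlapped between genotypes, with geometric means from 0.466 to 0.526 (exact permutation p = 0.114, two-sided, adjusted p = 0.19 over the 10 pairs). Of the assembly factors, *Sdhaf2*, which helps attach the flavin to *Sdha*, was 62.1 ± 4.42 CPM across WT and 57.03 ± 4.82 CPM across TAZG197V hearts (log2 fold change -0.13, interval -0.24 to -0.02, edgeR adjusted p = 0.0927). *Sdhaf1*, which serves the iron-sulfur subunit, was 5.82 ± 0.483 CPM across WT and 4.70 ± 0.724 CPM across TAZG197V hearts (log2 fold change -0.34, interval -0.58 to -0.10, edgeR adjusted p = 0.0595), and was called in 1 of 20 alternatives, without TAZG197V 2 (edgeR adjusted p = 0.0432), while without TAZG197V 4 its value was -0.20 (edgeR adjusted p = 0.286). Since 69.6% of its exon bases also lie in the annotated gene E130208F15Rik, reads of *Sdhaf1* cannot be assigned with certainty.

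The last steps are catalysed by fumarase and malate dehydrogenase. *Fh1*, fumarase, was measured at 549, 473, 488 and 449.9 CPM in WT 1 to 4 and 419, 443, 418 and 396 CPM in TAZG197V 1 to 4. The highest mutant library, TAZG197V 2, lay just below the lowest WT library, WT 4 (log2 fold change -0.22 ± 0.07 SE, edgeR adjusted p = 0.0376). This call was kept in 13 of 20 alternatives (edgeR adjusted p up to 0.0936) and was lost without WT 1, WT 3, TAZG197V 1, TAZG197V 2 or TAZG197V 3, and with the adipocyte marker level in place of the surrogate variables (edgeR adjusted p = 0.0786), among others. *Mdh2*, the mitochondrial malate dehydrogenase, was measured at 1236, 1118, 1240.5 and 1174 CPM in WT 1 to 4 and 1158, 1133, 1125 and 1165 CPM in TAZG197V 1 to 4 and was not called (log2 fold change -0.0674, interval -0.20 to 0.06, edgeR adjusted p = 0.445).

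**Figure D2:**
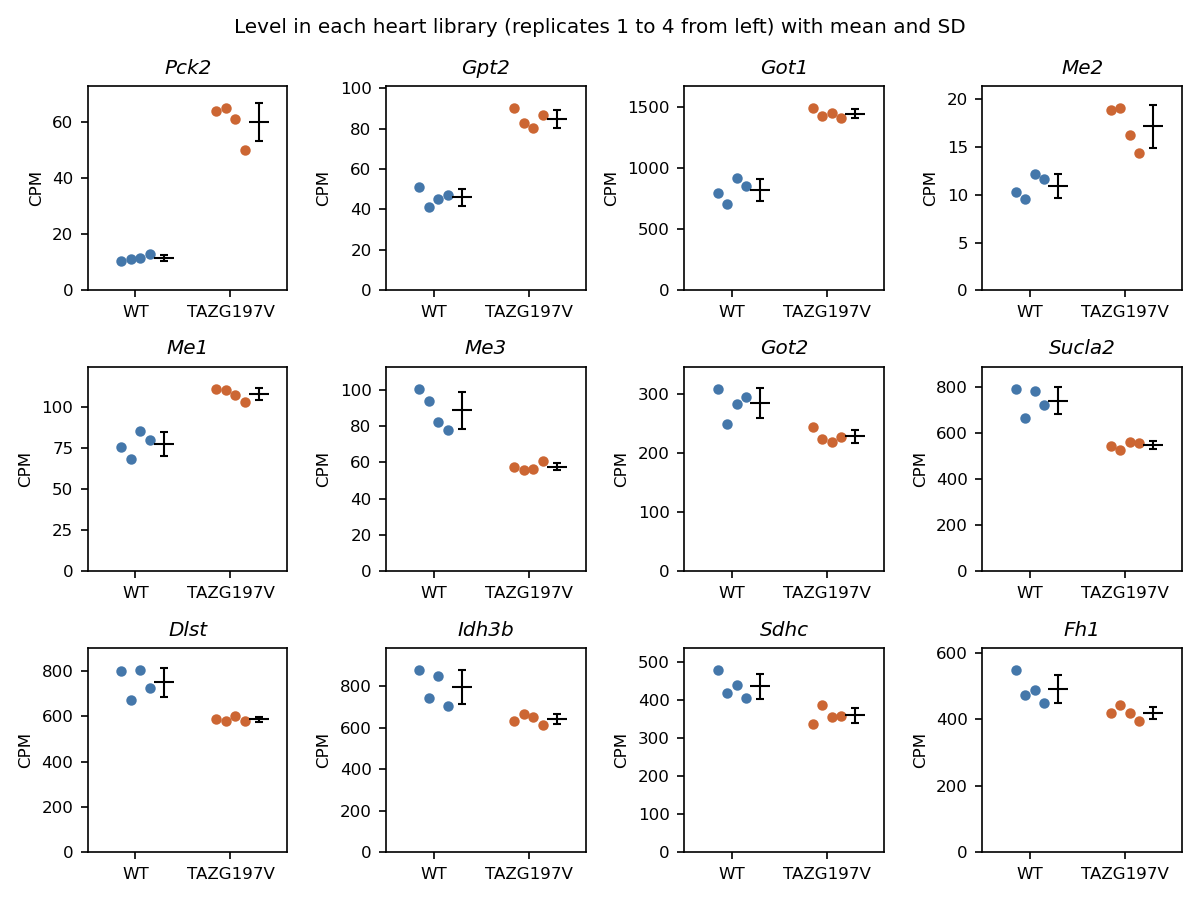
Level of 12 called members in each heart library, in CPM from 0, with replicates 1 to 4 from left to right in each genotype. The cross bar and whiskers give the mean and SD of 4 libraries. In each panel all TAZG197V libraries lie on 1 side of all WT libraries. The called members Pcx, Glud1 and D2hgdh are not shown, and for Pcx the genotypes overlapped.

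Among the anaplerotic and shuttle members the median log2 fold change was 0.02 and 9 of 15 did not overlap between genotypes, 5 higher and 4 lower, where 19.3% of all genes tested were higher and 13.9% lower without overlap. Summed over the list, levels were 4091 ± 279 CPM across WT and 4624 ± 156 CPM across TAZG197V libraries (SD, n = 4 each), a difference of 13.0%. Without *Got1* the sum was 3273 ± 225 CPM across WT and 3181 ± 138 CPM across TAZG197V libraries, a difference of -2.81%. Without WT 2, WT 4 and TAZG197V 4, and with no surrogate variables, 8 of the 15 were called, 5 higher and 3 lower, beside 13.8% of all genes higher and 13.1% lower in that fit.

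*Pck2*, the mitochondrial phosphoenolpyruvate carboxykinase, which draws oxaloacetate from the cycle to make phosphoenolpyruvate, changed most of all 34 members. Its gene lies at chr14:55540266-55551242 on GRCm38. It was measured at 10.5, 11.3, 11.6 and 12.9 CPM in WT 1 to 4 and 63.9, 64.98, 61.2 and 50.1 CPM in TAZG197V 1 to 4. The lowest mutant library, TAZG197V 4, was still far above the highest WT library, WT 4, and the fitted level was 5.10 times that of WT (log2 fold change 2.35 ± 0.09 SE, edgeR adjusted p = 1.68e-06). Per kilobase of exon it had the lowest level of the 34 members in WT hearts, 1.48 CPM, and reached 7.69 CPM in TAZG197V hearts. *Pck1*, its cytosolic counterpart, did not pass the low-count filter. It was between 0.0893 and 0.677 CPM in 3 WT libraries and at 5.85 CPM in WT 2, the library high in adipocyte markers.

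*Gpt2* and *Got1* encode transaminases that connect cycle intermediates with amino acids. *Gpt2*, the mitochondrial alanine aminotransferase, which turns pyruvate and glutamate into alanine and 2-oxoglutarate, was measured at 50.9, 41.1, 44.97 and 47.01 CPM in WT 1 to 4 and 90.2, 82.7, 80.1 and 86.5 CPM in TAZG197V 1 to 4. Every mutant library lay well above every WT library (log2 fold change 0.87 ± 0.07 SE, edgeR adjusted p = 9.03e-05). *Got1*, the cytosolic aspartate aminotransferase of the malate-aspartate shuttle, was measured at 798, 704, 915 and 856 CPM in WT 1 to 4 and 1490.1, 1426, 1446 and 1409.9 CPM in TAZG197V 1 to 4. The lowest mutant library exceeded the highest WT library, WT 3, by more than the whole WT range (log2 fold change 0.79 ± 0.07 SE, edgeR adjusted p = 9.88e-05). Per kilobase of exon *Got1* went from 322 to 568 CPM, so that in TAZG197V hearts it ranked near *Idh2* (579 CPM).

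*Got2*, the mitochondrial partner of *Got1* in the shuttle, changed in the opposite direction. It was measured at 308, 249, 283 and 295 CPM in WT 1 to 4 and 244, 224, 219 and 226 CPM in TAZG197V 1 to 4. Mutant libraries lay below WT libraries without overlap, TAZG197V 1 being close to WT 2 (log2 fold change -0.34 ± 0.07 SE, edgeR adjusted p = 0.00623). Of its 50-base exon windows 25.6% also occur in another annotated gene. The *Got1* to *Got2* ratio within a library was 2.59, 2.82, 3.23 and 2.90 in WT 1 to 4 and 6.10, 6.36, 6.60 and 6.24 in TAZG197V 1 to 4. It went from a geometric mean of 2.88 to 6.32 without overlap (exact permutation p = 0.0286, two-sided, adjusted p = 0.0714 over the 10 pairs).

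The malic enzymes convert malate to pyruvate and differ in compartment and cofactor. *Me1*, the cytosolic NADP enzyme, was higher, at 75.7, 68.3, 85.4 and 79.8 CPM in WT 1 to 4 and 111, 110.3, 107 and 103 CPM in TAZG197V 1 to 4 (log2 fold change 0.45 ± 0.05 SE, edgeR adjusted p = 0.000429). *Me2*, the mitochondrial enzyme that uses NAD, was higher, at 10.3, 9.54, 12.2 and 11.7 CPM in WT 1 to 4 and 18.9, 19.1, 16.2 and 14.3 CPM in TAZG197V 1 to 4 (log2 fold change 0.61 ± 0.09 SE, edgeR adjusted p = 0.00127). *Me3*, the mitochondrial NADP enzyme, was lower, at 101, 94.01, 82.4 and 78.1 CPM in WT 1 to 4 and 57.5, 56.00, 56.7 and 60.6 CPM in TAZG197V 1 to 4 (log2 fold change -0.59 ± 0.08 SE, edgeR adjusted p = 0.000604). None of the 3 overlapped between genotypes, and the mitochondrial pair thus moved in opposite directions. Of the exon windows of *Me1*, 28.3% also occur in another annotated gene.

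The malic enzymes were also set against each other within libraries. The *Me1* to *Me3* ratio was 0.753, 0.727, 1.04 and 1.02 in WT 1 to 4 and 1.93, 1.97, 1.89 and 1.69 in TAZG197V 1 to 4, higher in every mutant than in every WT library (exact permutation p = 0.0286, two-sided, adjusted p = 0.0714 over the 10 pairs). The *Me2* to *Me3* ratio was 0.102, 0.102, 0.148 and 0.149 in WT 1 to 4 and 0.329, 0.341, 0.287 and 0.237 in TAZG197V 1 to 4 (exact permutation p = 0.0286, two-sided, adjusted p = 0.0714 over the 10 pairs). Both pairs were separated without overlap. *Me3* entered both ratios, so they are not independent of each other.

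**Figure D3:**
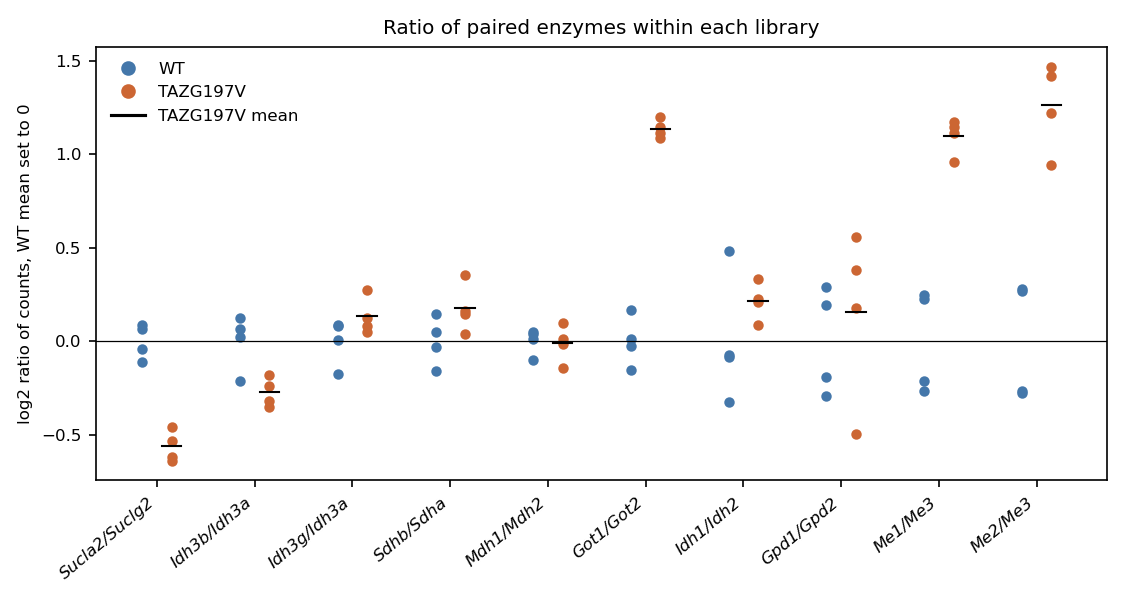
Log2 ratio of the counts of paired enzymes within each heart library, with the WT mean of each pair set to 0; points are the 4 WT and 4 TAZG197V libraries and the bar is the TAZG197V mean. The pairs Sucla2/Suclg2, Got1/Got2, Me1/Me3 and Me2/Me3 are separated without overlap, and the other 6 pairs overlap.

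The promoters of *Pck2*, *Gpt2*, *Got1* and *Me3* are shown because these are the called members with the largest changes among those with an entry in the reference table. Each sequence is the 250 bases before the annotated start, 5′ to 3′ on the gene's strand, from RefSeq on GRCm38.p6. Positions are chr14:55540016-55540265 (plus strand) for *Pck2*, chr8:85492326-85492575 (plus strand) for *Gpt2*, chr19:43524606-43524855 (minus strand) for *Got1* and chr7:89632568-89632817 (plus strand) for *Me3*. Capitals mark matches on either strand to TGATGNAA, a motif of ATF4 with C/EBP proteins, or to AAGGTCA, a motif of oestrogen related receptors that shares the letters TGAC, read on the other strand, with the NRF2 motif also searched.
Pck2: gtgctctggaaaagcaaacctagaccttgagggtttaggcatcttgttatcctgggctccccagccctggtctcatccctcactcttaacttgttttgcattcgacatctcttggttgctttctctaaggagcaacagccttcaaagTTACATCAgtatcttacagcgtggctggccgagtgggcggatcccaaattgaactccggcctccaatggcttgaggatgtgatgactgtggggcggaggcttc
Gpt2: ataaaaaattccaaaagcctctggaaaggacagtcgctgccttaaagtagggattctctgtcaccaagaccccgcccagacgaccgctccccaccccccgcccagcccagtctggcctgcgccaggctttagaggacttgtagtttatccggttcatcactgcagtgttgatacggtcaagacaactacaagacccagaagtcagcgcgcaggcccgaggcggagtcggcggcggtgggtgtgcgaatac
Got1: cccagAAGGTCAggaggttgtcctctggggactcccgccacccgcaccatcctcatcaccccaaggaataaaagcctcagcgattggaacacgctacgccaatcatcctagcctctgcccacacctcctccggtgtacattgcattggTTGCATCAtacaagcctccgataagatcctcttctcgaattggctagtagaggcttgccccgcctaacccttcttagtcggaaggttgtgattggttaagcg
Me3: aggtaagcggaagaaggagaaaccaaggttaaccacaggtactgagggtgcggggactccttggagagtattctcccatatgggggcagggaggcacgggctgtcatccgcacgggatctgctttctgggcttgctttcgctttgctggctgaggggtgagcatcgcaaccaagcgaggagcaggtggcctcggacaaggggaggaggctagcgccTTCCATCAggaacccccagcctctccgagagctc

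TGATGNAA occurred in the windows of *Pck2*, *Got1* and *Me3*, and of 30 members with a window no other had it, while 3.45% of all 32851 windows did. All windows were the 250 bases before a start. A member with several starts counted once if any of its windows had a match, while the shares are over single windows. The 3 genes include 2 that were higher and 1 that was lower, and the *Gpt2* window had no match. AAGGTCA occurred in the *Got1* window and in 4.08% of all windows. Of the other motifs searched, TGACNNNGC (NRF2) was in the windows of *Idh3g*, *Dlst*, *Sucla2* and *Sdhaf2*, beside 10.2% of all windows. CACGTG (an E-box) was in those of *Ogdh* and *Pcx*, beside 6.02%. TCACNCCAC (SREBP) was in that of *D2hgdh*, beside 1.05%. The NRF1 motif was in no member's window, beside 0.782%. A match is a string of letters and not a site shown to be bound.

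The remaining called members of the list were lower with small changes. *Pcx*, pyruvate carboxylase, which makes oxaloacetate from pyruvate, was measured at 45.5, 35.5, 42.5 and 49.2 CPM in WT 1 to 4 and 40.9, 33.5, 38.6 and 36.6 CPM in TAZG197V 1 to 4. Libraries of the genotypes overlapped (log2 fold change -0.24 ± 0.08 SE, edgeR adjusted p = 0.0447), and the call was kept in 6 of 20 alternatives (edgeR adjusted p up to 0.372), being lost without WT 1, WT 4, TAZG197V 2, TAZG197V 3 or TAZG197V 4. Its value was -0.13 without WT 4 and -0.14 without TAZG197V 4. *Glud1*, glutamate dehydrogenase, which releases 2-oxoglutarate from glutamate, was measured at 152, 134, 136 and 129.7 CPM in WT 1 to 4 and 119, 112, 113 and 129 CPM in TAZG197V 1 to 4. TAZG197V 4 lay just below the lowest WT library (log2 fold change -0.22 ± 0.07 SE, edgeR adjusted p = 0.0427), and the call was kept in 11 of 20 alternatives (edgeR adjusted p up to 0.142), being lost without any 1 library except WT 4 and TAZG197V 4. *D2hgdh*, which oxidises D-2-hydroxyglutarate to 2-oxoglutarate, was measured at 25.98, 22.3, 22.4 and 24.3 CPM in WT 1 to 4 and 20.2, 21.8, 20.4 and 20.1 CPM in TAZG197V 1 to 4. Its genotypes were separated by a small gap (log2 fold change -0.21 ± 0.07 SE, edgeR adjusted p = 0.0476), and the call was kept in 5 of 20 alternatives (edgeR adjusted p up to 0.133), being lost without any 1 library except WT 2 and WT 3. With the sequencing lane in place of the surrogate variables *Pcx*, *Glud1* and *D2hgdh* were not called (edgeR adjusted p = 0.177, 0.0531 and 0.0556). Of the exon windows of *D2hgdh* and *Glud1*, 17.8% and 6.49% also occur in another annotated gene.

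The other 5 members of the list were not called. *Mdh1*, the cytosolic malate dehydrogenase of the malate-aspartate shuttle, was measured at 2537, 2233, 2527 and 2169 CPM in WT 1 to 4 and 2270.3, 2406, 2248 and 2091 CPM in TAZG197V 1 to 4 (log2 fold change -0.0768, interval -0.22 to 0.07, edgeR adjusted p = 0.439), and the geometric mean of its ratio to *Mdh2* went from 1.98 to 1.97 (exact permutation p = 0.857, two-sided, adjusted p = 0.857 over the 10 pairs). *Idh1*, the cytosolic isocitrate dehydrogenase, was measured at 55.5, 53.4, 57.6 and 61.3 CPM in WT 1 to 4 and 53.5, 54.3, 58.7 and 61.9 CPM in TAZG197V 1 to 4 (log2 fold change -0.0116, interval -0.12 to 0.10, edgeR adjusted p = 0.886). Libraries of both genes overlapped between genotypes. The ratio of *Idh1* to *Idh2* also overlapped (exact permutation p = 0.257, two-sided, adjusted p = 0.321 over the 10 pairs). Its log2 difference was 0.21, 0.38 without WT 4 (adjusted p = 0.0476, exact permutation test) and 0.11 without WT 1. *Acly*, the cytosolic enzyme that splits exported citrate, was 44.95 ± 4.42 CPM across WT and 47.1 ± 4.37 CPM across TAZG197V hearts (log2 fold change 0.0546, interval -0.06 to 0.17, edgeR adjusted p = 0.486), and the change was 0.12 without WT 4.

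The glycerol phosphate shuttle was read from its 2 dehydrogenases. *Gpd1*, the cytosolic enzyme, was measured at 65.9, 50.5, 70.02 and 63.2 CPM in WT 1 to 4 and 76.6, 82.5, 79.7 and 48.3 CPM in TAZG197V 1 to 4. TAZG197V 1, 2 and 3 were above all WT libraries, while TAZG197V 4 was below all of them (log2 fold change 0.12, interval 0.01 to 0.24, edgeR adjusted p = 0.131). The edgeR p before adjustment was 0.0677, so this interval is narrower than the test warrants. Without TAZG197V 4 the log2 fold change was 0.36 and was called (edgeR adjusted p = 0.0376), while without TAZG197V 2 it was 0.05 (edgeR adjusted p = 0.655). TAZG197V 4 had 207 CPM over the brain markers and 3.81 CPM over the adipocyte markers, against at most 5.27 and 0.297 CPM in the other mutant libraries. With the adipocyte marker level in place of the surrogate variables *Gpd1* was -0.02 (edgeR adjusted p = 0.909), against 0.20 with neither (edgeR adjusted p = 0.398), and the part of the brain markers was not tested. *Gpd2*, the mitochondrial enzyme, was measured at 17.6, 18.9, 17.5 and 22.01 CPM in WT 1 to 4 and 20.7, 19.3, 16.5 and 20.8 CPM in TAZG197V 1 to 4 (log2 fold change 0.0220, interval -0.15 to 0.20, edgeR adjusted p = 0.864). The ratio of the pair overlapped (exact permutation p = 0.629, two-sided, adjusted p = 0.698 over the 10 pairs).

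**Figure D4:**
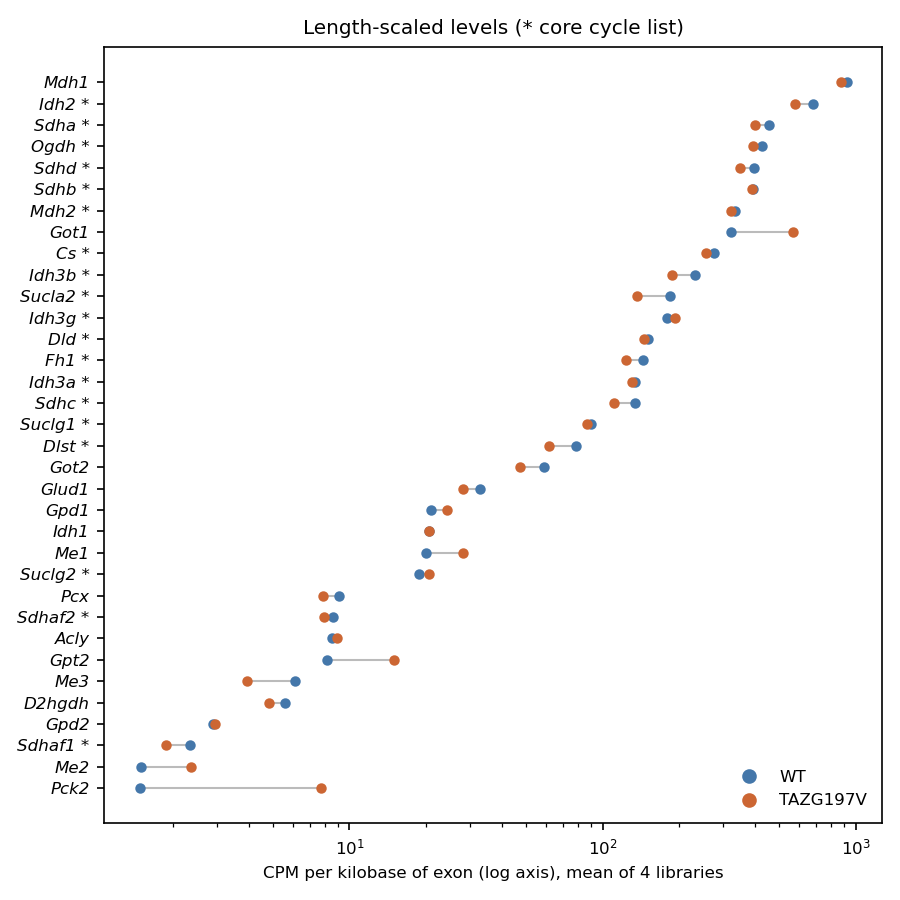
Mean level of each member per kilobase of exon in WT and TAZG197V hearts, in CPM per kilobase on a log axis, 4 libraries each, with core members marked by an asterisk. Pck2 has the lowest WT level (1.48 CPM per kilobase) and Mdh1 the highest (922 CPM per kilobase).

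Levels scaled by exon length differed widely between members. *Mdh1* (922 CPM per kilobase in WT), *Idh2* (678) and *Sdha* (455) were at the top. The malic enzymes *Me2* (1.51) and *Me3* (6.07) were near the bottom with *Pck2*. Among the beta subunits of succinyl-CoA ligase, *Sucla2* was at 185 and *Suclg2* at 18.8 CPM per kilobase in WT. The spread between WT libraries was similar in both lists, with a median coefficient of variation of 8.30% over core and 9.30% over anaplerotic and shuttle members.

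Other genes of the pathway were taken from a list of 25 that holds further cycle enzymes, propionate and amino acid enzymes and mitochondrial carriers. Of these 23 were tested, 9 were called lower and 2 higher, beside 15.1% lower and 18.5% higher of all genes tested. *Ogdhl*, a paralog of *Ogdh*, was lower in the mutants, with 277 ± 58.1 CPM across WT and 97.1 ± 14.4 CPM across TAZG197V hearts (log2 fold change -1.56 ± 0.11 SE, edgeR adjusted p = 3.42e-05). *Gpt*, the cytosolic alanine aminotransferase and counterpart of *Gpt2*, was lower in the mutants, with 38.5 ± 6.16 CPM across WT and 17.7 ± 1.16 CPM across TAZG197V hearts (log2 fold change -1.14 ± 0.11 SE, edgeR adjusted p = 0.000186). So the alanine aminotransferases of cytosol and mitochondrion moved in opposite directions.

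*Slc25a10*, the dicarboxylate carrier, was lower at -0.72 on the log2 scale (edgeR adjusted p = 0.00128). *Slc25a11*, the oxoglutarate carrier of the malate-aspartate shuttle, was lower at -0.40 (edgeR adjusted p = 0.00324). *Mmut*, methylmalonyl-CoA mutase, was lower at -0.49 and *Pccb*, a subunit of propionyl-CoA carboxylase, at -0.33 (edgeR adjusted p = 0.000618 and 0.0072). *Glul*, glutamine synthetase, was higher at 0.50 (edgeR adjusted p = 0.00366). TAZG197V 4 had the highest *Glul* level, and the change was 0.38 without that library (edgeR adjusted p = 0.0042) and 0.32 without WT 2, WT 4 and TAZG197V 4 (edgeR adjusted p = 0.0165, no surrogate variables).

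Of the 15 called members, 10 were called in the same direction under all 20 alternatives, among them *Sucla2*, *Dlst* and *Idh3b* of the core list and *Pck2*, *Gpt2*, *Got1*, *Got2* and the 3 malic enzymes of the other. All 15 kept their direction. With a fold change beyond 1.5 as the limit, 0 core members and 5 anaplerotic and shuttle members were called, 4 higher and 1 lower, beside 6.62% of all genes tested higher and 5.6% lower at that limit.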

How the data were processed

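The authors sequenced 50 base single-end reads, aligned them to mm10 with STAR 2.7.3a and counted reads over exons with featureCounts (Subread 2.0.0). They deposited raw counts for each Ensembl gene, and the authors did not scale these counts. Annotation release, strand setting and treatment of multiply aligned reads are not given in the sources used here. The 92 spike-in rows summed to 0 and were left out. Symbols, found for 55230 of 55471 IDs, and positions came from GENCODE M21 on GRCm38.

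The counts were fitted with edgeR 4.0.16 under R 4.3.3: filterByExpr, TMM, 2 surrogate variables from svaseq (sva 3.50.0, seed 1), the quasi-likelihood F-test and Benjamini-Hochberg adjustment over 15084 genes. Log2 fold changes are TAZG197V minus WT, with SE taken as their size over the square root of F, and intervals are 1.96 SE to each side. The intervals use the normal distribution and not that of the F-test, so they are narrower than that test implies. CPM are TMM-scaled, with SD over 4 libraries. Ratios used counts plus 0.5 and an exact permutation test over libraries. All p-values are two-sided. They measure the spread between these mice. Counting error alone, as a share of the WT level, was 7.86% for *Sdhaf1*, close to the 8.30% spread between WT libraries, and at most 5.74% for the other members. Litter, cage and extraction batch are not given in the sources used here. File names place replicates 1 and 2 of each genotype on lane 7 and the others on lane 8, and age is that given for the study's heart RNA-seq.

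The members, lists and alternatives were chosen with earlier results of these data known. All members are named, with every library's value for called members, succinate dehydrogenase subunits and paired enzymes. Of the other pathway list, genes are named from the 8 called ones with the largest change, and some results are not reported here. Numbers shared between genotypes were not treated as pairs, since same-number libraries correlated at 0.0436 to 0.416 and libraries of different number at -0.464 to 0.317. The fit was tested on simulated counts. A first requirement on the share of all known changes recovered was not met, because changes of 2-fold or less were often missed. It was replaced, after that outcome was seen, by requirements on the recovery of 4-fold changes, on unbiased fold changes and on few false calls, which were met. The simulations changed at most 200 genes and their fits used 0 or 1 surrogate variables. In the data 33.5% of genes were called and 2 surrogate variables were used, so the outcome need not carry over. All members but *Pck2* changed less than 2-fold, so a change that was not called here may have been missed.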

Additional observations from a re-analysis of the deposited data

Results flagged for a closer look

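In 88 sets of 4 libraries, 1 for each of the 34 members and 10 paired ratios in each genotype, the gap of the most extreme library to its nearest neighbour was compared with the whole range of the set. Gaps and ranges were taken on the log2 scale, so they differ from those of the CPM printed. Chance flags about 1 in 20 such sets, and 2 were flagged. *Gpd1* was lowest in TAZG197V 4, at 48.3 CPM against 76.6 to 82.5 CPM in the other mutant libraries, a gap of 0.862 of the range. *Acly* was highest in WT 4, at 51.6 CPM against 42.4 to 43.0 CPM in the other WT libraries, a gap of 0.929 of the range.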

How the results depend on the processing

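Among the 20 alternative fits, the calls of 10 of 15 called members and the direction of all 15 were kept. The cause of the changes below was not tested unless the setting itself gives it. With a fold change beyond 1.5, 1843 of all genes tested, 0 core members, 5 anaplerotic and shuttle members and 3 other pathway genes were called, as a stricter limit must give fewer. Leaving out 1 library gave 3 to 6 core members. It was 8 without WT 2 and TAZG197V 4, and also 8 without WT 2, WT 4 and TAZG197V 4 and no surrogate variables, an alternative chosen after seeing the data. Of the ratios, 6 of 10 passed without WT 4 (adjusted p = 0.0476, exact permutation test), and 0 under every other exclusion of a single library.

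Among values that were not called, some reversed near 0 and some gained a call. *Sdhb* was 0.00103 with 1 surrogate variable and ran from -0.0549 to 0.0242 leaving out 1 library. *Idh1* was 0.0113 with no low-count filter, 0.00385 with no surrogate variables, 0.000939 with 1, 0.00275 with lane, 0.00293 with the replicate block, 0.00272 without both number 4 libraries and -0.0403 to 0.0279 leaving out 1 library. *Gpd1* was -0.0236 with the adipocyte marker level as covariate and ran from 0.0488 to 0.363 leaving out 1 library. It was called higher with no low-count filter (0.291), without TAZG197V 4 (0.363), without both number 4 libraries (0.383) and without WT 2 and TAZG197V 4 (0.220). *Idh2* was called lower without WT 4 (-0.337), without both number 4 libraries (-0.334), without WT 2 and TAZG197V 4 (-0.347) and without those and WT 4 with no surrogate variables (-0.426). *Gpd2* ran from -0.0117 to 0.0878 leaving out 1 library. The *Mdh1* to *Mdh2* log2 ratio was 0.0354 without WT 2 and TAZG197V 4 and ran from -0.0491 to 0.0318 leaving out 1 library.

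With the replicate number as a block in place of the surrogate variables, 4272 genes, 4 core members, 7 anaplerotic and shuttle members and 9 other pathway genes were called, and *Fh1*, *Pcx*, *Glud1* and *D2hgdh* were not (edgeR adjusted p = 0.0554, 0.0854, 0.0586 and 0.0934). With the adipocyte marker level in their place, 3691 genes, 4 core members and 7 anaplerotic and shuttle members were called, and the same 4 members were not (edgeR adjusted p = 0.0786, 0.0698, 0.106 and 0.0735). Same-number libraries did not all correlate above 0.1. A sign-flip test of the ratios in blocks cannot go below 0.125. For *Sdhaf1*, counting error alone (7.86% of the WT level) was close to the spread between WT libraries (8.30%).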
